A study of Rattus norvegicus with 18 samples.

Results

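MEF2 knockdown was examined in rat hippocampal neurons that had been depolarized with KCl for 1 h. The 6 arrays used were the 3 titled as MEF2 RNAi with 1 h of KCl and the 3 titled as control with 1 h of KCl, out of 18 arrays in the series. Both groups were neurons in dissociated culture. Lentivirus was added on day in vitro 3 and carried control shRNAs in one group and shRNAs against MEF2A and MEF2D in the other. An shRNA is a short hairpin RNA that the cell turns into a small interfering RNA against the matching messenger. On day 10 both groups were silenced for 1 h with the NMDA receptor blocker AP5 and the sodium channel blocker TTX, and were then given 55 mM KCl, which depolarizes the membrane, for 1 h. The other 12 arrays hold the same arms with 0 h of KCl, that is, after the blockers alone, and with 6 h, 3 arrays in each group. Arrays are numbered 1 to 3 as biological replicates in their titles. Nothing in the labels says that they came from separate cultures or animals, so p-values measure the spread between these samples, which may be technical. The labels give neither the sequences of the shRNAs nor the share of cells that took up virus. Because RNA came from whole cultures, fewer cells of a type and less RNA per cell cannot be told apart.

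MEF2 proteins (myocyte enhancer factor 2) are transcription factors first known from muscle and abundant in brain. In neurons they sit on regulatory DNA together with class IIa histone deacetylases, which repress, and calcium entry through channels and receptors removes this repression, in part through the phosphatase calcineurin. In hippocampal neurons they are known for restricting the number of excitatory synapses and for acting on activity-induced genes. The arms with KCl therefore address which activity-regulated genes are under the control of MEF2, the purpose the labels state.

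Each value is the brightness of an Affymetrix probe set, a group of short oligonucleotides that is read out as 1 number. A gene is given by its brightest probe set, and signals are listed in the order of replicates 1, 2 and 3. Differences are on the log2 scale as RNAi minus control, so that -1 is a halving, with the standard error (SE) of the fit and n = 3 arrays per group throughout. A gene was called when the p from limma, adjusted by the Benjamini-Hochberg method over the 10934 genes tested, was under 0.05. Where the call of a gene ended without a single array, that array is named (control 1 to RNAi 3) with the adjusted p without it and, as the range, the lowest and highest adjusted p over all alternatives tried other than a minimum fold change. Signals of different genes come from different probes and are not compared.

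Mef2a, one of the targeted genes, was measured first. Its control signals were 2331, 2121 and 2051, and its RNAi signals were 577, 593 and 549. Every RNAi array was far below every control array. The mean with RNAi was 26.5% of control (log2 difference -1.92, SE 0.10, adjusted p = 2.12e-08). The other 3 Mef2a probe sets were also called lower, at -1.81, -1.44 and -0.86. Mef2d, the second target, had signals of 409.6, 425 and 417 in control arrays and 303, 339 and 295 with RNAi. Here too the arms did not overlap, and the mean with RNAi was 74.7% of control (log2 difference -0.42, SE 0.08, adjusted p = 0.00138). Its other probe set stood at 0.00 and was not called. Mef2c, which the shRNAs were not labelled against, had signals of 643, 674 and 714 in control arrays and 436, 549.7 and 579.6 with RNAi. Its arms did not overlap, but the difference missed the threshold (log2 difference -0.38, SE 0.13, adjusted p = 0.0562). With the replicate number as a block the adjusted p of Mef2c from limma was 0.000663, in a range of 0.000663 to 0.307 over its alternatives, and its other probe set stood at -0.22. Mef2b differed by 0.07 and was not called. Of the histone deacetylase genes tested in this family, Hdac4, Hdac5 and Hdac7 stood at 0.15, 0.20 and 0.07 and none was called, and Cabin1, whose product binds MEF2 and calcineurin, was higher at 0.26. The call of Cabin1 was lost without control 1 (adjusted p = 0.0504, range 0.0027 to 0.0645).

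The RefSeq promoter window of Mef2a holds a match to the consensus of MEF2 itself, and it is shown because Mef2a is both the targeted gene and the largest fall. It covers the 250 bases before the start site on the minus strand of rat assembly GRCr8, chr1:130392163-130392412, 5′ to 3′, with the match in capitals, 40 bases before the start.
Mef2a: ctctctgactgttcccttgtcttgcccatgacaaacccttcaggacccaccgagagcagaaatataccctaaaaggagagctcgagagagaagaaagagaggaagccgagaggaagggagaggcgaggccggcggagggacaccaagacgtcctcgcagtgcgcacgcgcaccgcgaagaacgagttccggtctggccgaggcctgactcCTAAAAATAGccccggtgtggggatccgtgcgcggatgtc

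Across all genes, 1869 were called after 1 h of KCl, 17.1% of those tested. Of these, 872 were higher with RNAi (7.98%) and 997 were lower (9.12%). Most differences were small. Only 14 genes were at least 2-fold higher and 49 at least 2-fold lower, while the median over all genes was 0.01. The groups of 3 arrays did not overlap for 1848 of the 1869 called genes, against 34.1% of all genes tested. Calls rest on the same arrays, which favours this. Same-numbered arrays deviated together, and with the replicate number as a block limma called 3073 genes, 1558 higher (14.2%) and 1515 lower (13.9%), 28.1% in all, which include all 1869. Against a minimum fold change of 1.2 (limma's treat), 107 were higher and 152 lower. RNAi replicate 1 was the lowest of the 3 RNAi arrays for 631 of the 997 lower genes (63.3%). Without that array 631 genes, by coincidence the same number, were called lower. Control replicate 1 was the highest control array for 564 of the 997. Among the 872 higher genes RNAi replicate 1 was the highest RNAi array for 314 (36.0%). Between arrays of the same number, the median difference of the lower genes was -0.53 for number 1, -0.36 for number 2 and -0.35 for number 3.

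**Figure D1:**
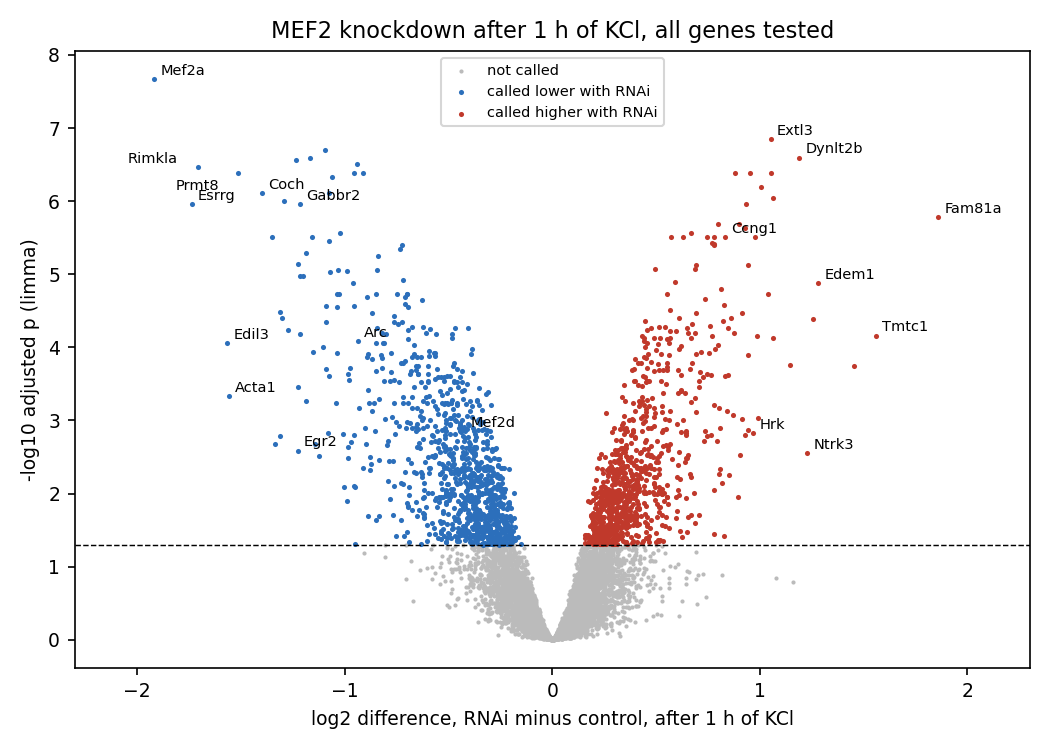
Each point is one of the 10934 genes tested, with its log2 difference between RNAi and control arrays after 1 h of KCl on the x axis and -log10 of its adjusted p from limma on the y axis; the dashed line marks an adjusted p of 0.05. Of the 997 genes called lower (blue) 49 lie at -1 or below, and of the 872 called higher (red) 14 lie at 1 or above, with Mef2a at the far left and Fam81a at the far right.

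The largest falls after that of Mef2a included a nuclear receptor, a neuropeptide synthetase, an arginine methyltransferase, a muscle actin, matrix proteins and a GABA receptor subunit. Esrrg encodes an orphan nuclear receptor of the estrogen-related family. Its signals were 359, 270.1 and 263 in control arrays and 82.6, 84.4 and 99.0 with RNAi, 30.0% of control (log2 difference -1.74, SE 0.14, adjusted p = 1.09e-06). The RNAi arrays lay close to the dim end of the table, where log2 differences are compressed. A second probe set of Esrrg, too dim to be tested, stood at -0.58. Rimkla encodes the enzyme that makes the neuropeptide N-acetylaspartylglutamate. It had 2371, 2662 and 2518 in control arrays and 683, 828 and 812 with RNAi, 30.7% of control (log2 difference -1.70, SE 0.12, adjusted p = 3.41e-07), and its other 2 probe sets were lower by 2.25 and 1.16. Edil3 encodes a secreted protein that binds integrins. Its control signals were 1202, 1169.6 and 1050.3, and its RNAi signals of 275, 457 and 452 included one in replicate 1 well below the others (log2 difference -1.57, SE 0.20, adjusted p = 8.85e-05).

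Acta1, the skeletal muscle alpha-actin gene, had signals of 384, 446 and 506 in control arrays and 109, 168 and 186 with RNAi. All RNAi arrays were under the lowest control array, and the mean was 34.0% of control (log2 difference -1.56, SE 0.25, adjusted p = 0.000465). Prmt8, a membrane-bound arginine methyltransferase of neurons, had 3773, 3786 and 3426 in control arrays and 1167, 1364 and 1324 with RNAi, 35.1% of control (log2 difference -1.51, SE 0.11, adjusted p = 4.18e-07). Arrays within each group lay close together, and the groups were far apart. Coch, which encodes the matrix protein cochlin, had 588, 626 and 508 against 196, 238 and 219 (log2 difference -1.40, SE 0.11, adjusted p = 7.81e-07). Tppp, a gene for a protein that promotes tubulin polymerization, had 2182, 1989.8 and 1859 against 803, 795 and 762 (log2 difference -1.35, SE 0.12, adjusted p = 3.07e-06). For both genes the highest RNAi array was under the lowest control array.

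Neurotrophin signalling was represented on both sides. Ntf3 encodes neurotrophin-3, a secreted growth factor, and its signals were 342, 329 and 336 in control arrays and 151, 110.1 and 161 with RNAi, 41.3% of control (log2 difference -1.27, SE 0.16, adjusted p = 5.81e-05). Ntrk3 encodes TrkC, the receptor of neurotrophin-3. Its signals were 522, 473 and 537 in control arrays and 936, 1407 and 1293 with RNAi, 2.34-fold higher (log2 difference 1.23, SE 0.25, adjusted p = 0.00281). For both genes the groups did not overlap, with the ligand lower and the receptor higher. Gabbr2, a subunit of the metabotropic GABA-B receptor, had signals of 3899, 3854 and 4055 in control arrays and 1498, 1829 and 1778 with RNAi. The mean with RNAi was 43.1% of control (log2 difference -1.21, SE 0.10, adjusted p = 1.09e-06). The rest of the 20 largest falls lay between -1.34 and -1.22. They were Lum and Ildr2, the dynein light chain gene Dynlt3, the carboxypeptidase gene Cpd, Hdgfl3, Epm2aip1, whose product binds the glycogen phosphatase laforin, Slain2, a microtubule growth factor, Grb10, an adaptor that restrains insulin receptor signalling, the sialyltransferase gene St6galnac3, and Egr2, which is described with the KCl-induced genes. A second probe set of Slain2 stood at -0.16 and was not called, and the call of Lum was lost when the floor was raised to the 40th percentile (adjusted p = 0.0828, in a range of 0.000351 to 0.0828).

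**Figure D2:**
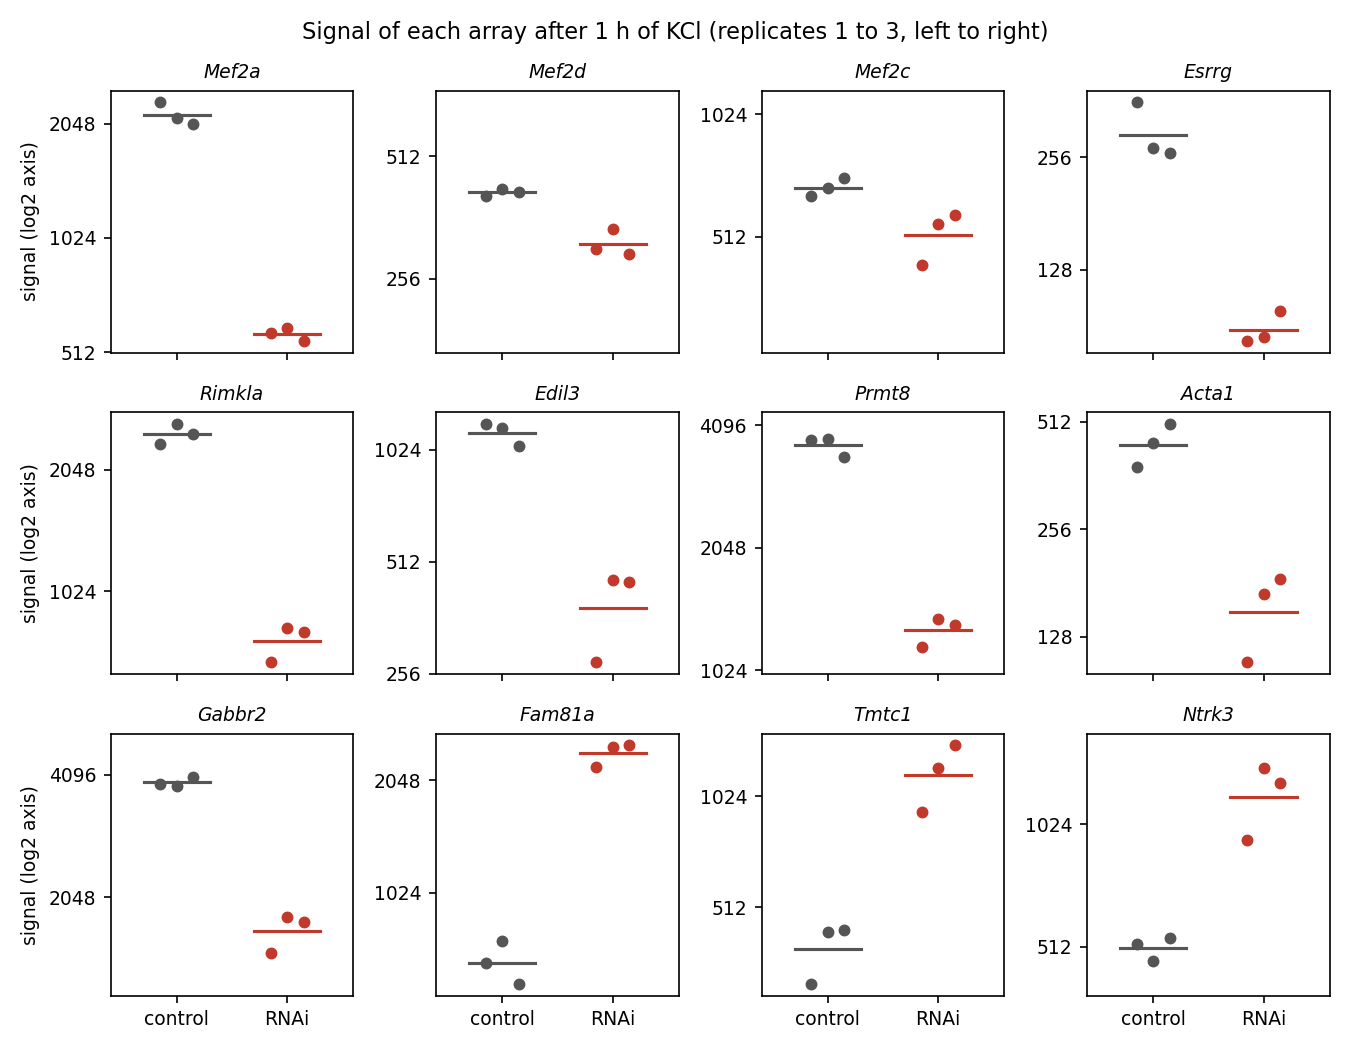
Signals of 12 genes on each of the 6 arrays after 1 h of KCl, on log2 axes that differ between panels; grey points are control arrays, red points are RNAi arrays and bars are group means of log2 signals. The groups do not overlap in any of the 12 panels, which the choice fixed for the genes from the largest falls and rises. RNAi replicate 1 is the lowest RNAi array in every panel but Mef2a and Mef2d, in the rises shown as in the falls.

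The largest rises included enzymes of the endoplasmic reticulum, a Rab regulator, a dynein light chain and a neurotrophin receptor. Fam81a, a gene of little described function, had control signals of 664, 761 and 585 and RNAi signals of 2221, 2508 and 2539. This was the largest rise, 3.63-fold (log2 difference 1.86, SE 0.16, adjusted p = 1.65e-06), and its other 2 probe sets rose by 1.02 and 1.59. Tmtc1 encodes an enzyme of the endoplasmic reticulum that adds mannose to proteins. It had 318, 438 and 445 in control arrays and 928, 1222 and 1403 with RNAi, 2.95-fold higher (log2 difference 1.56, SE 0.20, adjusted p = 6.91e-05). Edem1, which takes part in the degradation of misfolded glycoproteins, had 308, 369 and 312 against 695, 838 and 874 (log2 difference 1.28, SE 0.13, adjusted p = 1.32e-05), although a second probe set rose by only 0.31. In all of these the lowest RNAi array was above the highest control array.

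Tbc1d16, a gene for an activator of Rab GTPases, had 861, 1217 and 954 in control arrays and 2299, 2721 and 2171 with RNAi (log2 difference 1.25, SE 0.15, adjusted p = 4.1e-05). Dynlt2b, a dynein light chain gene, had 1094, 1069 and 960.5 against 2297, 2353 and 2472, 2.28-fold higher with one of the smallest errors in this group (log2 difference 1.19, SE 0.08, adjusted p = 2.54e-07). While Dynlt2b rose, the related light chain gene Dynlt3 fell to 40.3% of control. Extl3, which acts in the synthesis of heparan sulfate, had 1155, 1252 and 1094 against 2296, 2519 and 2439 (log2 difference 1.05, SE 0.06, adjusted p = 1.42e-07), and its second probe set rose by 0.35. The remaining members of the 20 largest rises lay between 0.94 and 1.45. They were C8h11orf87, Mcf2l, Gcsh of the glycine cleavage system, the palmitoyltransferase gene Zdhhc7, Coq2 of coenzyme Q synthesis, Mxra7, the iron-sulfur assembly gene Ciao1, Eeig2, C11h3orf70, Hsdl1, the cell death gene Hrk, the ubiquitin ligase gene Cul5 and Snn. Second probe sets of Mxra7 and C11h3orf70 stood at -0.02 and 0.19 and were not called.

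Genes induced by KCl were examined next, since KCl was on both arms. In the control arm 1 h of KCl raised 130 genes over 0 h (1.19% of genes tested) and lowered 165 (1.51%), 2.7% in all, and with the replicate block 601 were called. In the RNAi arm 135 rose (1.23%) and 289 fell (2.64%), 3.88% in all, and with the block 904 were called. The balance in the RNAi arm moved with the scaling of the arrays, from 31.8% of calls higher as deposited to 44.2% of 371 with quantile normalization and 47.7% of 350 with median centring. Without control 0 h replicate 2 the count in the control arm was 188. In the RNAi arm it was 276 and 253 without RNAi 0 h replicate 2 and 3, and 230 and 220 without RNAi 1 h replicate 2 and 3. Each KCl comparison shares its 1 h arrays with the RNAi comparison, so the values below are set side by side and no count of shared genes is given. The genes described are the 12 KCl-induced genes with the largest RNAi differences, so that the size of these differences was fixed by the choice. The gap between their KCl responses in the control and RNAi arms holds the same 1 h difference and leans with the choice too.

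Egr2, a zinc-finger transcription factor of the immediate early class, had control signals of 2834, 3081 and 2648 and RNAi signals of 1174, 1101 and 1400.3. All RNAi arrays were under the lowest control array, at 42.8% of control (log2 difference -1.23, SE 0.24, adjusted p = 0.00258). Its log2 response to KCl was 2.94 in control cultures and 2.14 in RNAi cultures. Arc, whose product acts in removing AMPA receptors from synapses, had 3592, 3306 and 3889 in control arrays and 2130.4, 1526 and 2026 with RNAi, 52.3% of control (log2 difference -0.94, SE 0.12, adjusted p = 8.18e-05). It was lower in every RNAi array, and its KCl responses were 3.02 and 2.62 in the same order. Ccn1, a secreted matrix protein, had 1538, 2013 and 2244 against 666, 1091 and 1322 (log2 difference -0.95, SE 0.22, adjusted p = 0.0081), with KCl responses of 3.40 and 2.21. RNAi replicate 1 was the lowest array for Ccn1, and the RNAi arrays stayed under the control arrays. Dusp5, a phosphatase that inactivates ERK, had 807, 751 and 789 against 444, 472 and 572 (log2 difference -0.67, SE 0.10, adjusted p = 0.000346), with KCl responses of 1.49 and 1.02.

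Egr4 had signals of 3192, 3655 and 3846 in control arrays and 2133, 2488 and 2579 with RNAi (log2 difference -0.57, SE 0.17, adjusted p = 0.0293). Ier2 had 8431, 7765 and 7408 against 5386, 5368 and 6514 (log2 difference -0.45, SE 0.12, adjusted p = 0.0128). In both of these immediate early genes every RNAi array was under every control array. KCl moved Egr4 by 4.33 and 3.54 in control and RNAi cultures, and Ier2 by 2.75 and 2.33. The call of Egr4 was lost without control 2, control 3, RNAi 1 or RNAi 2 (adjusted p = 0.0802, 0.0882, 0.117 and 0.0571, in that order, range 0.00233 to 0.117), and that of Ier2 without control 1, RNAi 1 or RNAi 2 (adjusted p = 0.0577, 0.0586 and 0.0553, in that order, range 0.00322 to 0.0586). Nrn1, which encodes the neurite growth protein neuritin, and Zeb2, a transcriptional repressor gene, were lower by 0.44 and 0.43 on the log2 scale. The call of Nrn1 was lost without control 1, control 3 or RNAi 1 (adjusted p = 0.0903, 0.084 and 0.155, in that order, range 0.00827 to 0.155). KCl moved the brightest probe set of Zeb2 by 0.44 and another by -0.32, and both were called lower with RNAi. Further tested ones moved by 0.08 and 0.44 with KCl and stood at -0.10 and -0.36 with RNAi, not called. Klf2, a Krüppel-like factor, had 714, 1163 and 1063 in control arrays and 371, 875 and 726 with RNAi. Its arms overlapped, since RNAi replicate 2 was above control replicate 1, and it was not called (log2 difference -0.64, SE 0.26, adjusted p = 0.11). With the block its adjusted p was 0.0206, in a range of 0.01 to 0.486, and without RNAi replicate 2 it was 0.0358. The KCl-induced genes higher with RNAi were the zinc-finger gene Zfand2a, Tp53rkb and Rem2, a GTPase that restrains calcium channels, at 0.91, 0.85 and 0.71. The call of Rem2 was lost without control 1, RNAi 2 or RNAi 3 (adjusted p = 0.0854, 0.0684 and 0.0728, in that order, range 0.000563 to 0.0969).

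Many strongly induced genes did not differ between the arms beyond the threshold. Fos had signals of 12314, 11251 and 11044 in control arrays and 9975, 10762 and 11017 with RNAi, just short of overlap. The difference was below its error in the shared fit (log2 difference -0.12, SE 0.35, adjusted p = 0.865), whose spread includes the other KCl times. Over the alternatives the adjusted p of Fos from limma ranged from 0.314 to 0.982. Fosb had 4922, 6632 and 7863 against 6075, 6365 and 7235 (log2 difference 0.04, SE 0.19, adjusted p = 0.923), and its arms overlapped. Junb, Jun and Klf4 stood at 0.05, -0.07 and 0.03. Nr4a1, a nuclear receptor gene often reported as a MEF2 target, had 8906, 10269 and 11634 against 7332, 9310.4 and 11036 (log2 difference -0.17, SE 0.24, adjusted p = 0.704), again with overlap. Bdnf, the neurotrophin gene, had 548, 596 and 615 in control arrays and 390.5, 626 and 695 with RNAi (log2 difference -0.08, SE 0.16, adjusted p = 0.807). Its RNAi replicate 1 was below all control arrays, and RNAi replicates 2 and 3 were above them. Egr1 had 13736, 14362 and 14239 against 11766, 10890.1 and 11519.6 and did not overlap, but the difference of -0.31 was close to its error in the shared fit (SE 0.29, adjusted p = 0.532); a fit to the 6 arrays alone called it (adjusted p = 0.0222, in a range of 0.0209 to 0.667). Homer1, a synaptic scaffold gene with short activity-induced and long transcripts, has 5 probe sets. The one that KCl raised, by 3.10, stood at -0.01 (SE 0.27) and was not called. Its brightest probe set, which KCl moved by -0.06, stood at -0.17 and was not called either, while another one was called higher at 0.64.

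Whether the RNAi difference at 1 h differed from that at 0 h was tested with the interaction of RNAi and KCl. With limma 0 genes were called, 363 genes (3.32%) had an unadjusted p under 0.05, and the replicate block also called 0. The median SE of this interaction was 0.13, against 0.09 for the RNAi difference at 1 h. The interaction holds the 1 h difference by which the KCl-induced genes above were chosen, so its sign and size in them lean with that choice. For the KCl-induced genes above, the interaction was -0.80 for Egr2 (SE 0.34), -0.40 for Arc (SE 0.17), -1.19 for Ccn1 (SE 0.32), -0.79 for Egr4 (SE 0.24) and -0.48 for Dusp5 (SE 0.14). It was -0.41 for Ier2, -0.41 for Zeb2 and -0.38 for Zfand2a, and it was closer to 0 for Klf2 (-0.16), Rem2 (-0.04), Nrn1 (0.02) and Tp53rkb (0.10), with none of the 12 called. The largest by p was Fosl2, an AP-1 subunit gene chosen here after its values were seen. It stood at 0.41 at 1 h and -0.95 at 0 h, an interaction of 1.36, and without RNAi 1 h replicate 1 it was the 1 gene called, at 1.63 (adjusted p = 0.0311).

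**Figure D3:**
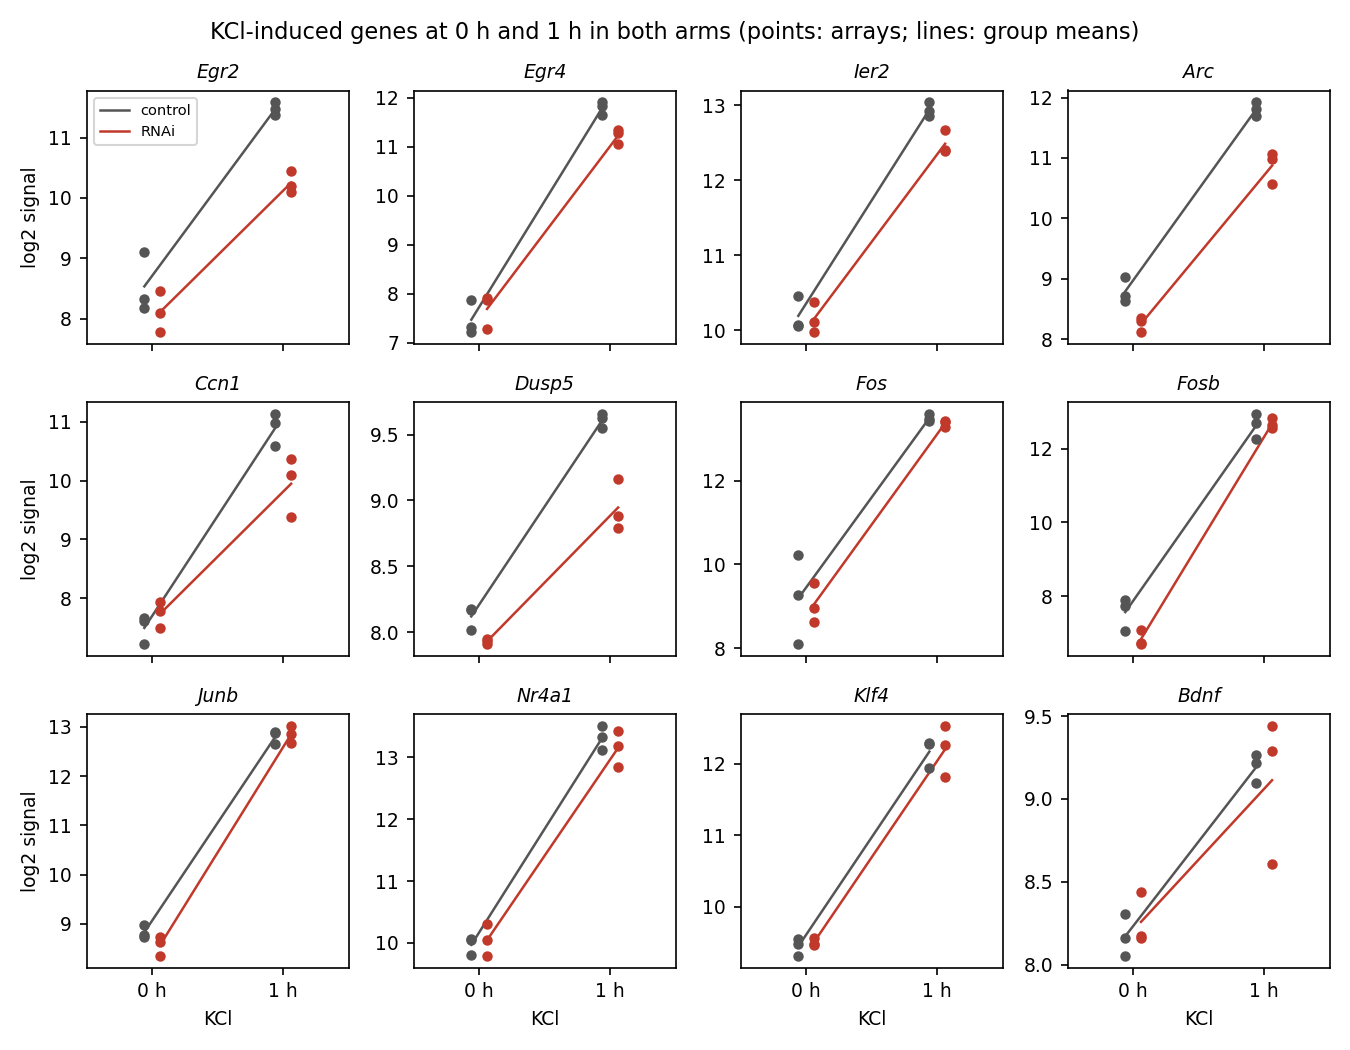
Log2 signals of 12 KCl-induced genes at 0 h and 1 h of KCl, with 1 point per array and lines between group means; grey is the control arm and red the RNAi arm, and the log2 axes differ between panels. At 1 h the arms are separate for Egr2, Egr4, Ier2, Arc, Ccn1 and Dusp5, and they overlap for Fosb, Junb, Nr4a1, Klf4 and Bdnf; for Fos they lie next to each other without overlap, at a difference of -0.12.

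Promoter windows were available for 9114 of the 10934 genes tested. They were searched on both strands for the 10-base MEF2 consensus, for the 10-base CArG box bound by serum response factor (SRF), and for the cAMP response element TGACGTCA. The MEF2 consensus and the CArG box differ in their second base, so no stretch counts as both. A MEF2 match stood in 128 of 9114 windows (1.40%), in 17 of 819 windows of genes called lower (2.08%) and in 6 of 756 windows of genes called higher (0.794%). A CArG box stood in 1.33% of all windows, in 1.71% for genes called lower and in 1.59% for genes called higher. For the cAMP response element the shares were 3.36%, 3.79% and 4.89%. Of the 37 windows of genes at least 2-fold lower, 2 held a MEF2 match and 3 a CArG box. Of the 103 windows of genes induced by KCl in the control arm, 13 held the cAMP response element (12.6%), 5 a CArG box (4.85%) and 2 a MEF2 match (1.94%). These are counts of letters in short windows and do not show binding.

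Windows were read one by one for the 20 largest falls, the 12 KCl-induced genes, Srf, the gene of SRF itself, Lgi1, Nefm and Gria1, where the table holds them. Of the 20 largest falls 17 had a window, and of these only that of Mef2a held a MEF2 match. Of the 12 KCl-induced genes 9 had a window, and none of these held a MEF2 match, nor did those of Srf and Lgi1. Among all windows read a CArG box stood in Acta1, Egr2, Dusp5 and Srf, and the cAMP response element in Ier2. The windows of other named genes were not read singly. The 5 windows were chosen for printing after their matches and values were seen. Srf had signals of 3838, 4209.9 and 4204 in control arrays and 2930.5, 3375 and 3321 with RNAi (log2 difference -0.35, SE 0.10, adjusted p = 0.0206), without overlap, and its call was lost without control 2, control 3 or RNAi 1 (adjusted p = 0.068, 0.0598 and 0.0992, in that order, range 0.00599 to 0.0992). In the 5 sequences capitals mark the matches. The windows are Acta1 at chr19:68784195-68784444 (minus strand), Egr2 at chr20:21054442-21054691 (minus strand), Dusp5 at chr1:262543524-262543773 (plus strand), Srf at chr9:21923826-21924075 (plus strand) and Ier2 at chr19:40399123-40399372 (plus strand), all on RefSeq GRCr8 and 5′ to 3′. The matches begin 94 bases before the start site in Acta1, 83 in Egr2, 82 and 72 in Dusp5, 81 and 61 in Srf, and 66 in Ier2.
Acta1: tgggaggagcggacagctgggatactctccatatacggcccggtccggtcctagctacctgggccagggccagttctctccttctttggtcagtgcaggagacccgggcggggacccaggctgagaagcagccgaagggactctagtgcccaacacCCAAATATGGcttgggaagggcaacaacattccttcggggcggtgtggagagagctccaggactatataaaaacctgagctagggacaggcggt
Egr2: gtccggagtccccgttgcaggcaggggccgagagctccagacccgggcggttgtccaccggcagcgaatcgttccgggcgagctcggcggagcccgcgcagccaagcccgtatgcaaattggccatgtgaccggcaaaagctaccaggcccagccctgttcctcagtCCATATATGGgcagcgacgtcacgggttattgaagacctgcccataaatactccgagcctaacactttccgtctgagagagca
Dusp5: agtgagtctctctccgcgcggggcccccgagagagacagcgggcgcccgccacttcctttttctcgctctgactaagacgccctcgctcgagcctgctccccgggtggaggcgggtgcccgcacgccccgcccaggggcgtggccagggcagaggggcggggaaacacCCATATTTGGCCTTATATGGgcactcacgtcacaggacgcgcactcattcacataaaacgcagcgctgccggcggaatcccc
Srf: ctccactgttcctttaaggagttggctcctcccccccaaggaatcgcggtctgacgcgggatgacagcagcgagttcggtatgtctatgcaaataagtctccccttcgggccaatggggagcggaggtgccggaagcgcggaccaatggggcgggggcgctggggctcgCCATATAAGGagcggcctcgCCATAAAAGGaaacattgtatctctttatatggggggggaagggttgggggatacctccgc
Ier2: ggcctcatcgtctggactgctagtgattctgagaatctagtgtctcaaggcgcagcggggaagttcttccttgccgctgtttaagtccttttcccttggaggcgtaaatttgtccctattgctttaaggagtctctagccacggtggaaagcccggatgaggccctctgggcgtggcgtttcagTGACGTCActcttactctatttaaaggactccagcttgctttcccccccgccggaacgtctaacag

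Gene lists were then read for their counts of called members, against 7.98% higher and 9.12% lower over all genes, and counts with the replicate block against 14.2% and 13.9%. Of 17 reported MEF2 targets tested, 0 were higher and 3 lower, namely Arc, Lgi1 (-1.04) and Ube3a (-0.38), with a list median of -0.11; the block called 5 lower. Lgi1 encodes a secreted synaptic protein that is mutated in an inherited epilepsy, and its signals were 473, 453 and 481 against 192, 255 and 243. Ube3a encodes a ubiquitin ligase, and its call was lost without control 1 or RNAi 3 (adjusted p = 0.0765 and 0.0668, in that order, range 0.00529 to 0.0765). Part of this list may have been picked from these same arrays, and its direction is not independent evidence. Immediate early transcription factors had 0 of 26 higher and 4 lower (Egr2, Egr4, Ier2 and Srf; median -0.05), and 1 and 7 with the block, although 20 of the 26 were raised by KCl in the control arm. Of 13 MAP kinase phosphatases and feedback inhibitors, Dusp5 alone was called, and the block called 1 more, higher. Activity-regulated synaptic effectors had 2 of 14 lower, Arc and Nptx1 (-0.37), a neuronal pentraxin; the call of Nptx1 was lost without control 1, control 2 or RNAi 1 (adjusted p = 0.0855, 0.0762 and 0.145, in that order, range 0.00269 to 0.145).

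Secreted factors and neuropeptides had 0 of 18 higher and 4 lower, Ntf3, Ccn1, Sst (-1.12) and Tac1 (-0.85), and 7 were lower with the block (median -0.09). Sst encodes somatostatin, an inhibitory interneuron peptide, and its signals were 2783, 1807 and 2938 in control arrays and 943, 1109 and 1370.4 with RNAi. Every RNAi array was under the lowest control array, although the control arrays themselves spread widely (SE 0.23, adjusted p = 0.0031). Tac1 encodes the substance P precursor, and its call was lost without control 2, control 3, RNAi 1 or RNAi 2 (adjusted p = 0.0576, 0.0865, 0.105 and 0.078, in that order, range 0.00127 to 0.105). Among 13 neurotrophin and growth factor receptor genes, Ntrk3, Sort1 (0.57) and Fgfr2 (0.35) were higher and Ngfr (-0.69) was lower, the last of these the p75 neurotrophin receptor; the block called 2 lower. Another probe set of Sort1 stood at 0.05, the call of Fgfr2 was lost without control 1 or RNAi 3 (adjusted p = 0.0799 and 0.077, in that order, range 0.00141 to 0.101), and Ngfr, a dim gene, was not called with the floor at the 40th percentile (adjusted p = 0.557, in a range of 2.48e-05 to 0.557).

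Calcium and calmodulin signalling had 6 of 20 members lower and 1 higher (median -0.14). The kinase genes Camk2a and Camk2b stood at -0.46 and -0.31, and the calcineurin subunit gene Ppp3cc at -0.43. Camk2b had signals of 10688, 10465 and 10551 against 7864, 8600.2 and 9111, a separate but small difference (SE 0.06, adjusted p = 0.0019). The calcineurin regulators Rcan1 and Rcan2 moved in opposite directions, with Rcan2 called lower at -0.54. Rcan1, the only member called higher, had 1777, 1736 and 2174 in control arrays and 2513, 2848 and 2992 with RNAi (log2 difference 0.56, SE 0.11, adjusted p = 0.00252). Rcan2 lies outside the naming rule and was chosen after its value was seen. The lowest member of the list, at -0.91, also lies outside the rule and is not named here. Over the mean of its probe sets Camk2a was not called (adjusted p = 0.179, in a range of 0.00116 to 0.179).

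At the excitatory synapse, 5 of 25 glutamate receptor and scaffold genes were lower and 0 higher (median -0.13), and the block called 1 higher. Shank1, a postsynaptic scaffold, had signals of 6709, 6041 and 5909 in control arrays and 3307, 3949 and 4316 with RNAi (log2 difference -0.70, SE 0.09, adjusted p = 7.61e-05), but its other 2 probe sets both stood at 0.09. Gria1, the AMPA receptor subunit GluA1, had 604, 419.6 and 560.2 against 231, 363 and 349 (log2 difference -0.76, SE 0.18, adjusted p = 0.00784). RNAi replicate 1 was the lowest array for both, and the groups did not overlap. Dlg2 and Dlgap1, which encode partners of the postsynaptic density, stood at -0.39 and -0.32, and the call of Dlgap1 was lost without control 1 or RNAi 1 (adjusted p = 0.0694 and 0.0759, in that order, range 0.00287 to 0.0971).

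At the inhibitory synapse, 2 of 12 genes were lower and 1 higher (median -0.18), and 6 were lower with the block. Beside Gabbr2, the GABA-A subunit gene Gabra2 had 1193, 1082 and 1171 in control arrays and 451, 739 and 720.0 with RNAi (log2 difference -0.89, SE 0.24, adjusted p = 0.0201). The subunit gene Gabrb1 moved the other way, with 2089, 2137 and 2142 against 3299, 3732 and 3975 (log2 difference 0.79, SE 0.10, adjusted p = 0.000106). The call of Gabra2 was lost without control 1 or RNAi 1 (adjusted p = 0.0624 and 0.108, in that order, range 0.000478 to 0.108). Synaptic vesicle and release proteins, on the presynaptic side, had 3 of 21 higher and 0 lower (median 0.03), and 6 and 3 with the block. They were Cplx1, a regulator of fusion, Vamp1, a vesicle SNARE, and Syn2, a synapsin, at 0.61, 0.55 and 0.43, although the other 2 probe sets of Vamp1 and of Syn2 were not called. Cplx1 had signals of 4237, 3862 and 4569.8 against 6395, 6473 and 6444, with all RNAi arrays close together above the control arrays.

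Among ion channel genes, voltage-gated sodium and calcium channels had 4 of 20 lower and 0 higher (median -0.14). The beta subunit genes Scn3b and Scn2b stood at -0.78 and -0.56, the alpha subunit gene Scn3a at -0.52 and the L-type channel gene Cacna1c at -0.44. Scn3b had signals of 5136, 5439.8 and 5447 in control arrays and 2703, 3244 and 3438 with RNAi, and its second probe set was lower by 0.84. The call of Scn3a was lost without RNAi 1 (adjusted p = 0.0654, range 0.000226 to 0.0654) and that of Cacna1c without control 2 (adjusted p = 0.0557, range 0.00226 to 0.0557). Voltage-gated potassium channels had 3 of 15 lower and 1 higher (median -0.20), and 6 lower with the block. Those called lower were Kcnh1, Kcnv1 and the channel partner Kcnip3, at -0.76, -0.49 and -0.46. The one higher was the auxiliary subunit gene Kcnab1 at 0.52, whose call was lost without control 1, control 2, RNAi 2 or RNAi 3 (adjusted p = 0.0543, 0.0509, 0.0503 and 0.0735, in that order, range 0.00111 to 0.0959).

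Cell adhesion and axon guidance, the longest list, had the most called members, 13 of 44 lower and 1 higher (median -0.16), and the block called 2 higher. Nrp1, a neuropilin, had signals of 3932, 3609 and 3452 in control arrays and 1797, 2309 and 2192 with RNAi (log2 difference -0.81, SE 0.12, adjusted p = 0.000285), and its second probe set was lower by 0.76. Nrp2, the other neuropilin, had 2766, 2554 and 2470.1 against 1395, 1817 and 1552 (log2 difference -0.72, SE 0.10, adjusted p = 0.000163). Epha4, an ephrin receptor, had 5992, 4379.6 and 4235 against 2765, 2871 and 2645 (log2 difference -0.80, SE 0.10, adjusted p = 6.63e-05), with another 2 probe sets lower by 0.79 and 0.67. In all of them the highest RNAi array was under the lowest control array. The protocadherin gene Pcdh17 was lower by 0.53 on the log2 scale, and Lgi1 is also in this list.

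**Figure D4:**
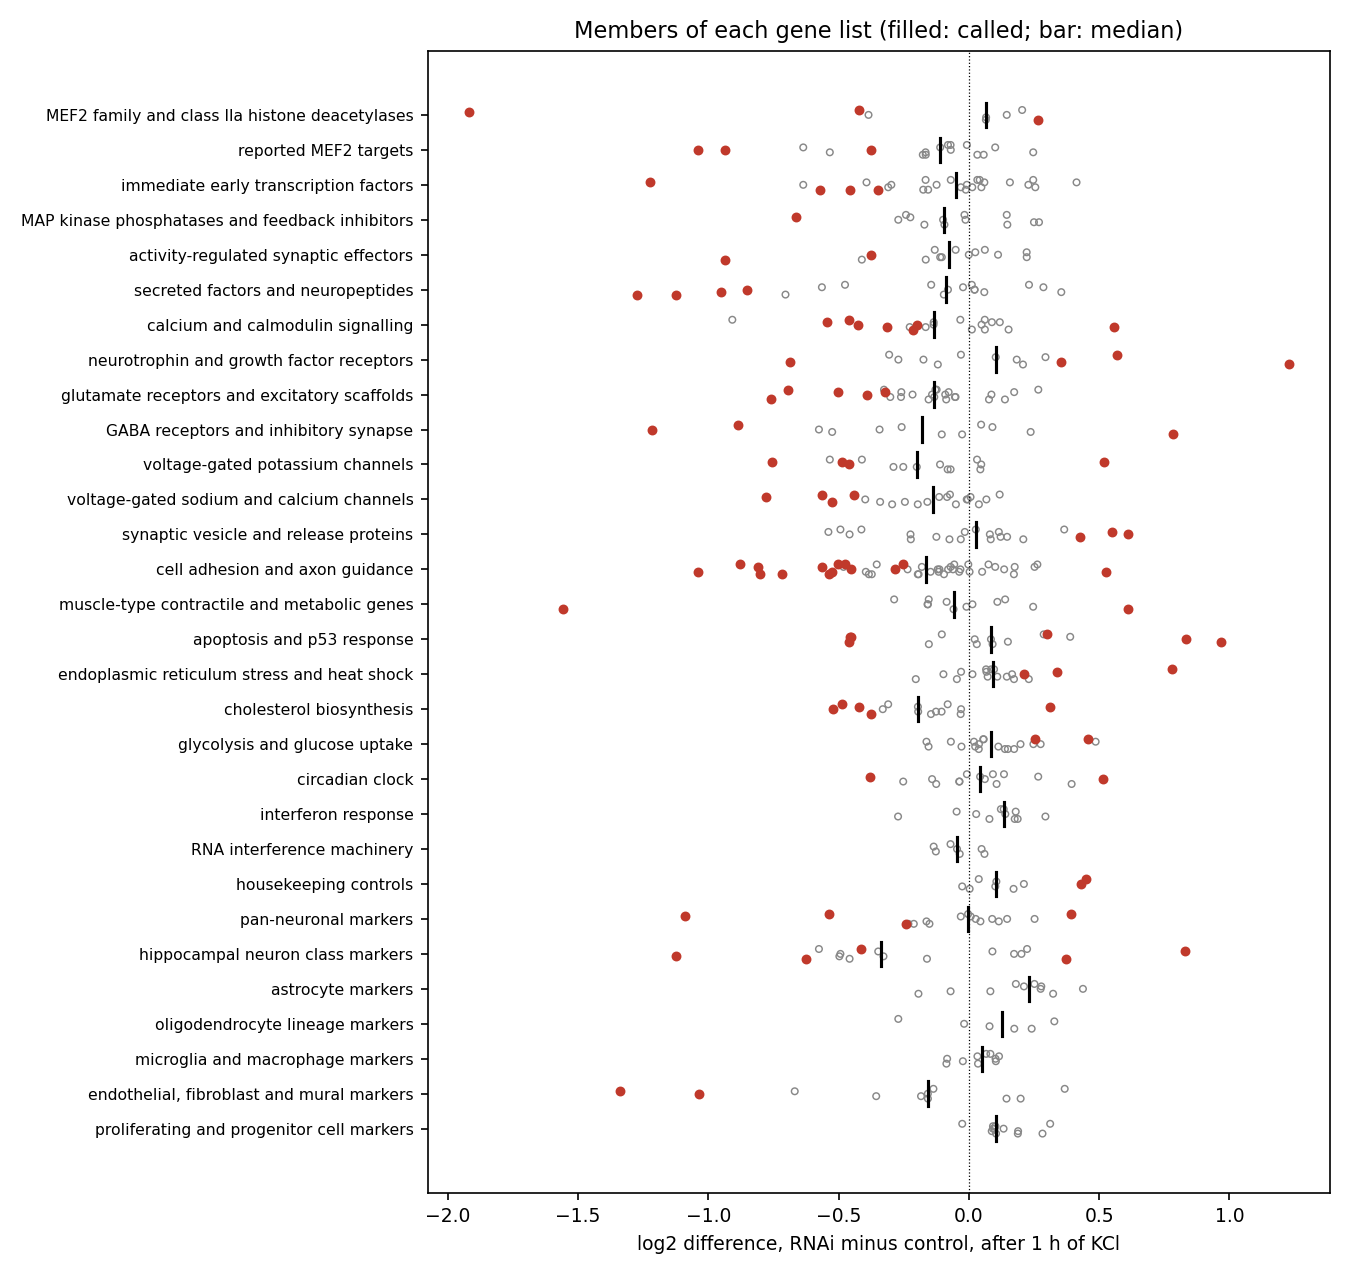
Log2 differences between RNAi and control arrays after 1 h of KCl for the tested members of 30 gene lists, 1 row per list; filled points were called, open points were not, and the bar is the median of the list. Filled points lie mostly left of 0 for adhesion and guidance (13 lower, 1 higher) and for channels and glutamate receptors, and right of 0 for synaptic vesicle proteins (3 higher, 0 lower).

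Apoptosis and p53 response genes split, with 3 of 15 higher and 3 lower (median 0.08). Hrk, a BH3-only activator of cell death, had 447, 559 and 528 in control arrays and 917, 1023 and 1049 with RNAi (log2 difference 0.97, SE 0.18, adjusted p = 0.0015). Ccng1, a p53 target, had 2858, 3004 and 2768 against 4955, 5377 and 5026 (log2 difference 0.83, SE 0.08, adjusted p = 3.07e-06). Both rose without overlap, while Mcl1, a survival gene, and Bid, a cell death gene, stood at -0.46 and -0.45. Cholesterol biosynthesis had 4 of 15 lower and 1 higher (median -0.19), and 7 lower with the block. The enzyme genes Nsdhl, Fdft1 and Cyp51 stood at -0.52, -0.49 and -0.37, whereas Srebf2, the regulator of the pathway, was higher at 0.31. The call of Cyp51 was lost without control 1 or RNAi 3 (adjusted p = 0.0584 and 0.0545, in that order, range 0.000596 to 0.0584), and that of Srebf2 without control 1 (adjusted p = 0.0555, range 0.000474 to 0.109).

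Of 18 chaperone, heat shock and unfolded protein response genes, Hspb1 (0.78), Chac1 (0.34) and Dnajb1 (0.21) were higher and 0 lower (median 0.09), and the block called 1 lower. The call of Hspb1 was lost without control 1, control 3, RNAi 1, RNAi 2 or RNAi 3 (adjusted p = 0.146, 0.0523, 0.116, 0.0666 and 0.0722, in that order, range 0.0123 to 0.146), that of Chac1 without control 1, control 2, RNAi 2 or RNAi 3 (adjusted p = 0.076, 0.0737, 0.059 and 0.104, in that order, range 0.00962 to 0.104), and that of Dnajb1 without control 2, control 3 or RNAi 2 (adjusted p = 0.0766, 0.0775 and 0.115, in that order, range 0.00301 to 0.115). Glycolysis and glucose uptake had 2 of 20 higher and 0 lower, and 7 higher with the block (median 0.09). They were the phosphofructokinase gene Pfkm (0.25), not called over the mean of its probe sets (adjusted p = 0.17, range 0.00124 to 0.17), and Arrdc4 (0.46), an arrestin-domain gene, whose call was lost without control 2, control 3, RNAi 1 or RNAi 3 (adjusted p = 0.0847, 0.0606, 0.104 and 0.0674, in that order, range 0.00472 to 0.104). Circadian clock genes had 1 of 15 higher and 1 lower, Bhlhe41 (0.51) and Tef (-0.38), and 2 higher with the block, and the call of Bhlhe41 was lost without control 3, RNAi 1 or RNAi 3 (adjusted p = 0.0637, 0.0891 and 0.0617, in that order, range 0.00074 to 0.0891). Muscle-type contractile and metabolic genes, a class that MEF2 drives in muscle, had 13 members tested (median -0.06), of which Acta1 was lower and Cryab, a small heat shock protein gene, was higher at 0.61, and the block called 2 lower. Another 7 members were at the floor in all 6 arrays. No interferon response gene of 11 and no gene of the RNA interference machinery of 7 was called, with medians of 0.13 and -0.05, and the block called 2 interferon genes higher and 1 lower. Of 9 housekeeping controls, Hprt1 and Tfrc were higher at 0.43 and 0.45, and the block called 4 higher. The call of Tfrc was lost without control 2, control 3, RNAi 1 or RNAi 2 (adjusted p = 0.0788, 0.152, 0.107 and 0.136, in that order, range 0.00233 to 0.152).

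Cell type markers were read to see what the cultures held. Summed signals compare the same probe sets between arrays and not one list with another. Those of the pan-neuronal markers were 104062 to 108506 over 17 genes in control arrays and 94225 to 108105 with RNAi. Of these 17, 3 were lower and 1 higher (median -0.00297), and the block called 4 lower and 3 higher. Nefm, the medium neurofilament gene, had 4956, 4643 and 4431 in control arrays and 1844, 2419 and 2373 with RNAi, 47.0% of control (log2 difference -1.09, SE 0.13, adjusted p = 4.48e-05), while the heavy neurofilament gene Nefh stood at 0.39. The call of Nefh was lost without control 1 or RNAi 1 (adjusted p = 0.0527 and 0.0554, in that order, range 0.00365 to 0.0554). Elavl4 (-0.54) and Map2 (-0.24) were also lower, and their calls were lost without control 1, control 3 or RNAi 1 (adjusted p = 0.0767, 0.0725 and 0.123, in that order, range 0.00191 to 0.123) and without control 1, RNAi 1, RNAi 2 or RNAi 3 (adjusted p = 0.208, 0.162, 0.0878 and 0.0677, in that order, range 0.0247 to 0.208). Markers of hippocampal neuron classes had 3 of 16 lower and 2 higher, with a list median of -0.34, and 9 and 4 with the block. Neurod6 and Neurod1, transcription factor genes of excitatory neurons, stood at -0.41 and -0.63, Sst at -1.12, and Bcl11b, a gene of projection neurons, at 0.37. The other marker called higher was Reln, at 0.83 the largest rise of the list. Reln lies outside the naming rule and is described with the other observations. The call of Bcl11b was lost without control 1, control 3 or RNAi 2 (adjusted p = 0.0542, 0.0596 and 0.0985, in that order, range 0.001 to 0.0985). The marker Vip was at the floor in all 6 arrays.

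None of 10 astrocyte markers was called, with a median of 0.23. Their summed signals were 59780 to 73943 in control arrays and 70642 to 81585 with RNAi, ranges that overlap, and the block called 6 of the 10 higher. Gjb6, an astrocyte gene, was at the floor. No marker was called among 6 of the oligodendrocyte lineage (Mog and Mobp at the floor), 10 of microglia and macrophages (Ptprc at the floor) or 12 of proliferating and progenitor cells (Eomes at the floor), of which the block called 2 higher. Endothelial, fibroblast and mural markers had 2 of 11 lower, the matrix genes Lum (-1.34) and Dcn (-1.04), and the block called 1 higher. Their summed signals were 6224 to 7993 in control arrays and 5244 to 6147 with RNAi, without overlap. Without Lum and Dcn they were 3574 to 5935 and 4333 to 4920, which overlap. Pecam1 and Vtn were at the floor. Dcn had 2349, 1949 and 1826 in control arrays and 814, 1119.8 and 1064 with RNAi (log2 difference -1.04, SE 0.14, adjusted p = 0.00012). The part of these cell type differences in the other results was not tested.

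The same arms at 0 h and 6 h of KCl come from arrays that do not enter the log2 differences at 1 h. The errors and calls at all times come from a shared fit, however. Deviations of same-numbered arrays from their group means also correlated in every pair of groups, at 0.168 to 0.741. The shared counts and correlations between times below are therefore not those of independent repeats. At 0 h, 1624 genes were called (14.9%), 947 higher (8.66%) and 677 lower (6.19%), and the block called 2847. This balance turned with the scaling, from 58.3% of calls higher as deposited to 50.6% of 1646 with quantile normalization and 43.8% of 1628 with median centring. At 6 h, 1883 were called (17.2%), 948 higher (8.67%) and 935 lower (8.55%), and the block called 3084. Without RNAi 6 h replicate 1 the count at 6 h was 1207. The genes raised at both 0 h and 1 h numbered 603, which is 69.2% of the 1 h list and 63.7% of the 0 h list. The genes lowered at both numbered 553, or 55.5% and 81.7% of the respective lists. With 6 h the shared counts were 522 higher (59.9% and 55.1%) and 586 lower (58.8% and 62.7%). In all, 416 genes were higher and 395 lower at all 3 times. Over the 10934 genes, which are no replicates of each other, the RNAi differences at 1 h correlated at 0.841 with those at 0 h and at 0.793 with those at 6 h.

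Of the 63 genes at least 2-fold changed at 1 h, 61 were called in the same direction at 0 h and 57 at all 3 times. Esrrg stood at -1.24, -1.74 and -1.35 at 0, 1 and 6 h, Rimkla at -1.40, -1.70 and -1.71, and Tppp at -1.09, -1.35 and -1.22. Fam81a stood at 1.94, 1.86 and 2.61. Arc was lower at all times, at -0.54, -0.94 and -0.92. A total of 414 genes were called at 1 h and at neither other time, 163 higher and 251 lower. Their median size was 0.31, against 0.41 for the other calls at 1 h. A call at 1 time alone favours genes near the threshold, so the choice leans to smaller sizes. Of the 414, 360 had the same sign at both other times. For 46 of them the interaction with 0 h had an unadjusted p from limma under 0.05, which the choice also favours, and none was called. The largest of the 414 were Egr2, at -0.43, -1.23 and -0.30, and Ccn1, at 0.24, -0.95 and -0.51.

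Calls of opposite direction numbered 1 with 0 h and 2 with 6 h. The polycomb gene Cbx8 was lower at 1 h (-0.18) and higher at 0 h (0.19). Dot1l, a histone H3 methyltransferase gene, was higher at 1 h (0.39) and lower at 6 h (-0.28), and Lrif1 was lower at 1 h (-0.36) and higher at 6 h (0.37). These 3 were chosen after their values were seen. The RNAi differences at 6 h and at 1 h differed beyond the threshold for 5 genes with limma (0.0457% of genes tested), 3 higher (0.0274%) and 2 lower (0.0183%) at 6 h, while 674 had an unadjusted p under 0.05 and the block called 77. That count rests on single arrays. It was 3 without control 1 h replicate 1, RNAi 1 h replicate 1 or control 6 h replicate 3, 2 without RNAi 1 h replicate 2, 1 without control 1 h replicate 2 or 3, RNAi 1 h replicate 3 or control 6 h replicate 2. Leaving out control 6 h replicate 1 gave 9. Among the 5 was Prmt8, which stood at -1.51 at 1 h and -0.51 at 6 h.

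**Figure D5:**
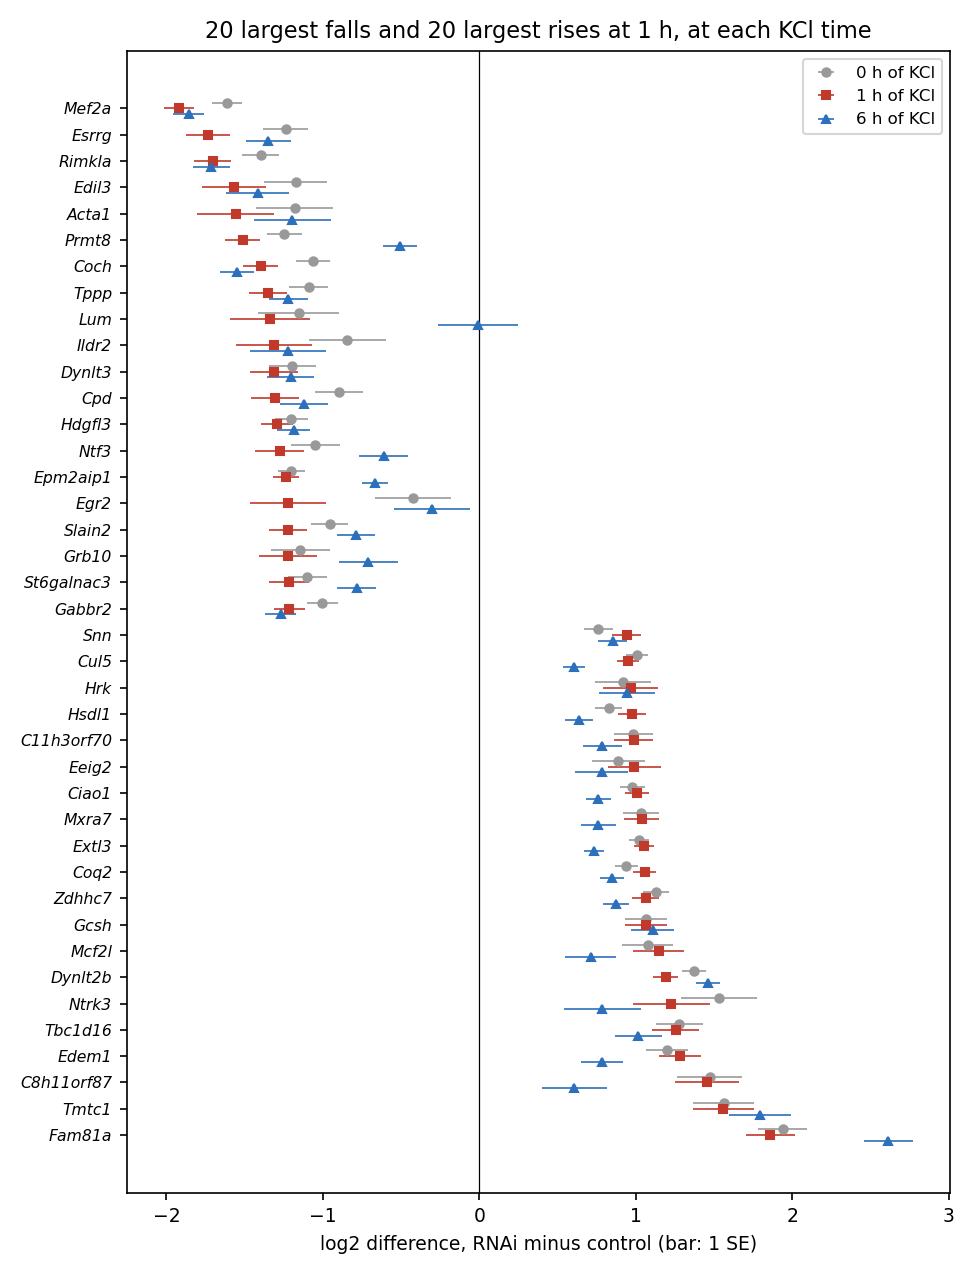
Log2 differences between RNAi and control arrays for the 20 largest falls and 20 largest rises at 1 h of KCl, at 0 h (grey circles), 1 h (red squares) and 6 h (blue triangles); horizontal bars are 1 SE of the fit. Most genes lie on the same side at all 3 times; Lum at 6 h is at -0.01 and Prmt8 at -0.51, against -1.34 and -1.51 at 1 h.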

How the data were processed

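The deposited values are linear intensities, 1 for each of 31099 probe sets on each array; the sources used here do not say how the authors summarised or normalised them. Of these, 20832 carry 1 gene symbol, 436 several and 9831 none, and 20764 matched RefSeq GRCr8. Array medians were 240 to 248, within-group correlations of log2 values were 0.994 to 0.998 and no 2 arrays were identical; the number of arrays limits the precision. Values under the 20th percentile (72.6) were set to that floor before log2 transformation. Each of 14218 genes is its brightest probe set, tested where above the 40th percentile of its array on at least 3 arrays. limma 3.58.1 in R 4.3.3 was fitted to 18 arrays with 6 group means (12 residual degrees of freedom), two-sided, after being tested on simulated data.

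Replicate numbers come from the titles. Deviations from group means of the 3 same-numbered pairs at 1 h correlated at 0.224 to 0.629, and those of other pairs at -0.481 to 0.00965. Deviations within a group cancel, which pulls the other pairs down where same-numbered pairs are positive. Over all pairs of groups, 45 of 45 same-numbered pairs and 6 of 90 others correlated over 0.1, the others at up to 0.425. Same-numbered arrays thus resemble each other, but the labels do not state a pairing. Counts, SEs and adjusted p-values are therefore from the fit without a replicate block unless another fit is named. The block called 3073 genes at 1 h against 1869 without it, and it is given where it moves a count or a named call. The comparison and the 30 lists were chosen with earlier results of these data known. Named genes are the 20 largest rises and falls among called genes whose arrays do not overlap, up to 4 called members of each list by p, 12 KCl-induced genes by RNAi difference, and a fixed set of MEF2 and activity genes; exceptions are stated. Promoter windows are RefSeq GRCr8, 250 bases before to 50 after the start. Alternatives were other floors, scalings, filters, probe set choices, arrays, weights and blocks.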

Additional observations from a re-analysis of the deposited data

Results flagged for a closer look

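The RNAi difference changed between 1 h and 6 h of KCl for 5 genes, as tested by the difference of the differences with limma (SE 0.09 to 0.16). Prmt8, the neuronal arginine methyltransferase gene, moved by 1.01, from -1.51 at 1 h to -0.51 at 6 h (adjusted p = 0.0277). Imp3 moved by 0.74, from -0.94 to -0.20 (adjusted p = 0.00664). Sdhaf3, an assembly factor gene of the mitochondrial succinate dehydrogenase, moved by 0.75, from 0.11 to 0.87 (adjusted p = 0.0154). Dot1l moved by -0.67, from 0.39 to -0.28 (adjusted p = 0.0245). Trpc6, a cation channel gene, moved by -0.77, from -0.63 to -1.40 (adjusted p = 0.0288). The counts of such genes without single arrays stand with the comparison. Groups of 3 arrays were not searched for single outlying arrays.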

How the results depend on the processing

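Of the 123 genes followed under the alternatives, 111 were called, 56 of them under every alternative, and 24 others lost their call under the minimum fold change of 1.2 alone. None of the 111 changed direction. Apart from single arrays, calls ended over the mean of probe sets for Camk2a, Dnajb1, Egr4, Fgfr2, Kcnab1, Map2, Pfkm, Srebf2 and Tfrc, and without the filter on dim genes for Arrdc4, Egr4, Hspb1, Map2, Nrn1, Tac1 and Tfrc. With the floor at the 40th percentile they ended for Lum and Ngfr, and with array weights for Map2 and Nptx1. In a fit to the 6 arrays alone they ended for Cabin1, Dlgap1, Dnajb1, Map2, Nptx1, Nrn1, Pfkm, Rem2, Tfrc and Ube3a, and Egr1 was called. With the replicate block the count at 1 h was 3073 (1558 higher, 1515 lower), or 2840 (1426 higher) as a random term, and beside Mef2c and Klf2 it changed no call among the 123, in the fit to all 18 arrays. With the block as a fixed and a random term the counts were 2847 and 2669 at 0 h, 3084 and 2871 at 6 h, 601 and 542 for KCl in the control arm, 904 and 827 for KCl in the RNAi arm, and 77 and 64 for 6 h against 1 h. Array weights gave 2833 at 0 h, 487 and 1215 for KCl in the control and RNAi arms, and 23 for 6 h against 1 h. The minimum fold change of 1.2 gave 259 at 1 h, 107 higher and 152 lower. For 6 h against 1 h, the floor at the 40th percentile gave 8 and no filter 12. With quantile normalization 2015 genes were called at 1 h, 52.2% of them higher, against 46.7% in the values as deposited. A block fitted to the 6 arrays alone, an alternative added after the data were seen, called 2281 and ended the calls of Dlgap1, Dnajb1, Map2 and Nrn1. Leaving out single arrays gave 1278 to 1743 at 1 h (626 to 797 higher, 631 to 946 lower), 1128 to 1452 at 0 h, 1207 to 1637 at 6 h, 188 to 269 for KCl in the control arm, 220 to 376 in the RNAi arm, 0 to 1 for the interaction and 1 to 9 for 6 h against 1 h. The lowest counts came without RNAi 1 h replicate 1 for all and for lower genes at 1 h and without RNAi 1 h replicate 3 for higher genes. Uncalled genes changed sign as follows. Homer1 was 0.012 over the mean of probe sets. Fosb was -0.056 and Bdnf 0.024 with array weights. Over single arrays left out, Fosb ranged from -0.14 (control 1) to 0.20 (control 3) and was -0.031 without RNAi 3. Junb ranged from -0.036 (RNAi 3) to 0.14 (RNAi 1), Klf4 from -0.13 (RNAi 3) to 0.23 (RNAi 1), Bdnf from -0.24 (RNAi 3) to 0.17 (RNAi 1) and Jun from -0.14 to 0.00071 (control 1). Without control 1, Junb was -0.032 and Klf4 -0.079. The causes were not tested. Genes near the floor have compressed differences.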

Other observations

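Some called genes outside the naming rule were chosen after their values were seen. Nrxn3, a presynaptic adhesion gene of the neurexin family, had signals of 1469, 808 and 1086 in control arrays and 606, 522 and 655 with RNAi (log2 difference -0.88, SE 0.19, adjusted p = 0.00481), and stood at -0.66 and -0.80 at 0 h and 6 h. Reln, the gene of the secreted guidance protein reelin, moved the other way, with 1392, 2379 and 2241 against 3056, 3512 and 3878 (log2 difference 0.83, SE 0.26, adjusted p = 0.0382), at 0.95 and 0.87 at 0 h and 6 h. Slc4a10, a bicarbonate transporter gene of neurons, had 2117, 2265 and 2178 against 945, 1149.9 and 1446 (log2 difference -0.91, SE 0.20, adjusted p = 0.00445), and it was called at 1 h alone, with -0.60 at 0 h (adjusted p = 0.0514) and -0.53 at 6 h (adjusted p = 0.0734). Chodl, the gene of the membrane lectin chondrolectin, was lower at 1 h (-0.77) and stood at -0.61 at 0 h and 0.55 at 6 h, neither of them called. For the first 3 of these genes the arms did not overlap. These calls were not tried under the alternatives.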
